A study of Mus musculus with 12 samples.

Results

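The 63 genes described here encode the initiation factors eIF1 to eIF6 and the elongation factors eEF1 and eEF2 of cytoplasmic translation, together with the proteins named after them that bind or modify these factors. They were chosen by name, as protein-coding genes whose symbol begins with Eif1 to Eif6 or with Eef1 or Eef2. The Eif2ak kinases, which phosphorylate eIF2, were kept out. Of the 63 genes, 57 had a mean of 3 or more normalized counts across the 6 libraries of either macrophage (Mϕ) subpopulation. These 57 were the same in both subpopulations and stood among 10718 genes tested in F4/80lo Mϕ and 10499 genes tested in F4/80hi Mϕ, out of 47643 gene rows. The other 6 were *Eef1a2*, *Eif4e1b* and *Eif4ebp3*, with 0 reads in all 12 libraries, *Eef1akmt3* with 4 F4/80lo reads and 2 F4/80hi reads, *Eif5a2* with 7 and 5 reads, and the Y-linked *Eif2s3y* with 0 and 4 reads. A count of 0 allows up to 3 reads in a library.

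Translation starts when eIF2 carries the initiator tRNA to the small ribosomal subunit, with eIF1, eIF1A, eIF5 and the large eIF3 complex holding the subunit ready to scan for the start codon. The cap of the mRNA is bound by eIF4F, made of the cap-binding protein eIF4E, the helicase eIF4A and the scaffold eIF4G, and the 4E-BP proteins hold eIF4E back. During elongation eEF1A brings each aminoacyl-tRNA to the ribosome, the eEF1B subunits recharge eEF1A with GTP, and eEF2 moves the ribosome on by a codon. The mRNAs of the elongation factors and of several initiation factors are classically grouped with those of the ribosomal proteins as TOP mRNAs, which begin with a C and a run of pyrimidines and whose translation follows mTORC1.

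The libraries came from female C57/BL6 mice, 8 to 12 weeks old by the study's methods, all of which had been injected with zymosan (5 mg/kg), a yeast cell wall preparation that causes a self-limiting peritonitis. From day 1 the mice received daily injections of 25 mg/kg compound III (CIII), an inhibitor of mPGES-1, the enzyme of the last step of prostaglandin E2 synthesis, or of its vehicle of Tween-80, carboxymethyl cellulose and saline (VEH). At day 6 F4/80lo Mϕ (CD45+, CD11b+, low F4/80 and MerTK, Ly6G-, MHCII+) and F4/80hi Mϕ (CD45+, CD11b+, high F4/80 and MerTK) were sorted from the peritoneal lavage. In the study's gating scheme CD11c+ MHCII+ dendritic cells were set aside ahead of both, and Ly6G+ neutrophils ahead of F4/80lo Mϕ. The sorts gave 3 libraries for each treatment and subpopulation, 12 in all. Whether a library is 1 mouse, and whether both subpopulations came from the same mice, is not stated, so the p-values measure the spread between these libraries only.

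Each library held between 426624 and 3389448 reads on genes, read as tags near the 3′ end of the mRNA, and 1 read was worth between 0.333 and 2.28 normalized counts. The libraries numbered 3 stood apart from the others. They gave 2.65 to 14.3% of their reads to *Gm42418*, a gene known to overlap ribosomal RNA, against at most 0.579% in numbers 1 and 2. The number 3 libraries of F4/80hi Mϕ with VEH and CIII also held 2.10 and 5.47 normalized counts of *Gata6*, the transcription factor of resident peritoneal Mϕ, against 20.9 to 47.0 in the other libraries, and 1321 and 672 of *Ccr2*, the receptor of recruited monocytes. Numbers 1 and 2 held 50.5 and 18.3 of *Ccr2* with VEH and 276 and 105 with CIII. *Adgre1*, which encodes F4/80, lay between 351 and 1207 normalized counts in F4/80hi Mϕ and between 196 and 352 in F4/80lo Mϕ, in tables that were normalized separately. Mesothelial markers summed to at most 2.10 normalized counts in any library, and *Prg2*, *Epx* and *Mcpt4* of eosinophils and mast cells were at 0 in both tables.

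To show where the described mRNAs begin, 30 bases around the annotated start of transcription are printed for 9 genes whose values are followed below and for *Eif3f*, shown for its long pyrimidine run, with 15 bases before the start and 15 from the start on. The sequences come from RefSeq on GRCm38.p6 and are written on the coding strand. Capitals mark a C followed by at least 4 pyrimidines that begins within 5 bases of the start, as in a TOP mRNA, and in *Eef1b2* they mark CCGGAAG, a core bound by ETS-family factors.
Eef1a1 (chr9:78481710-78481739, reverse strand): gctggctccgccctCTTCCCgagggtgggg
Eef1b2 (chr1:63176816-63176845, forward strand): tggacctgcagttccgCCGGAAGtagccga
Eef2 (chr10:81176616-81176645, forward strand): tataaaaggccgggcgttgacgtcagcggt
Eif3f (chr7:108934400-108934429, forward strand): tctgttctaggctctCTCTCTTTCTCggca
Eif3k (chr7:28981874-28981903, reverse strand): aaaacaaccggcgctggtgctgaaagcgcc
Eif3m (chr2:105017013-105017042, reverse strand): ttttccggtcggcgtgtttctggatcggag
Eif1ax (chrX:159372163-159372192, forward strand): gaggaggaggagggcggggagaagccccgc
Eif4a1 (chr11:69672409-69672438, reverse strand): acaaagtaacgtcacgtcgagttgcagagc
Eif4b (chr15:102073758-102073787, forward strand): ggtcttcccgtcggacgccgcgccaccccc
Eif4ebp2 (chr10:61452655-61452684, reverse strand): ggtatcgcagcgggacgaccgggcgagagc

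The table of starts held 47 of the 63 genes, with 61 starts between them. A pyrimidine run of this kind stood at 12 of the 61 starts (19.7%), against 18.3% of all 32851 starts. CCGGAAG was searched on both strands over the 300 bases from 250 before the start to 50 after it. It was found at 19 of the 61 starts (31.1%), against 8.86% of all starts. Cytoplasmic ribosomal protein genes had it at 22 of 63 starts (34.9%). Among the translation factor genes that held it were *Eef1b2*, *Eif1ax*, *Eif3g*, *Eif3m*, *Eif4ebp2* and *Eif5a*. These matches describe the letters only, and annotated starts can lie several bases from those used in Mϕ.

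No translation factor mRNA passed limma with Benjamini-Hochberg adjustment over all genes tested, in either subpopulation. Most of the mRNAs in F4/80hi Mϕ were lower with CIII than with VEH. The log2 fold change of CIII against VEH was below 0 for 47 of the 57 genes, against 46.5% of all genes tested, and the median over the 57 was -0.36 against 0.05 over all genes. It was below 0 in F4/80lo Mϕ for 39 of the 57 genes, against 54.1% of all genes, with a median of -0.20 against -0.05. No gene list was tested as a set, so these shares are descriptions. In a bulk library, fewer cells of a type and less RNA per cell cannot be told apart.

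**Figure D1:**
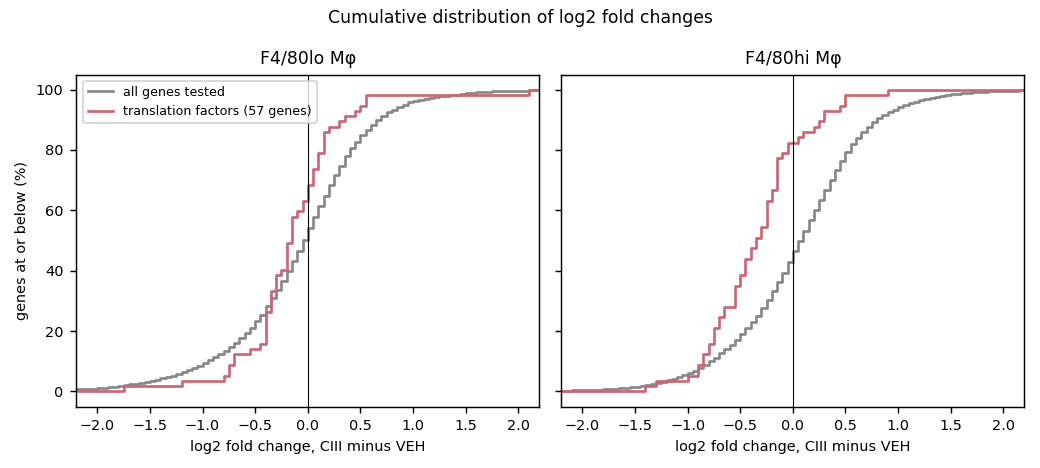
Cumulative share of genes (%, y axis) at or below a given log2 fold change of CIII against VEH (x axis), for all genes tested (grey) and the 57 translation factor genes (red), in F4/80lo (left) and F4/80hi Mϕ (right). The red curve of F4/80hi Mϕ lies to the left of the grey one over most of its range, with 47 of 57 genes below 0, and the curves of F4/80lo Mϕ lie closer, with 39 of 57 below 0.

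By replicate number, the median over the 57 genes in F4/80hi Mϕ was -0.25, -0.39 and -0.43, so it was below 0 in each of the 3. It was -0.06, -0.40 and -0.07 in F4/80lo Mϕ, and leaving out the CIII library or the VEH library numbered 2 brought the median to -0.07 or -0.11. The gap to the median of all genes was -0.15 there, -0.06 without that CIII library and -0.02 without that VEH library. In F4/80hi Mϕ 22 genes were lower with CIII in every replicate number, against 16.6% of all genes, and 2 were higher in every number, against 17.2%. For F4/80lo Mϕ, 18 were lower in every number, against 15.7%, and 4 were higher, against 13.1%. Over 19 alternative settings the count of lower genes ran from 43 to 48 in F4/80hi Mϕ, with medians from -0.46 to -0.26, and from 34 to 43 in F4/80lo Mϕ, with medians from -0.25 to -0.07. Scaling to equal totals moved the median of all genes in F4/80hi Mϕ from 0.05 to 0.15 and that of the 57 from -0.36 to -0.26, which left the gap between them at -0.42 and -0.41. Without the libraries numbered 3, 45 of the 57 genes were lower in F4/80hi Mϕ with a median of -0.36, and 41 were lower in F4/80lo Mϕ with a median of -0.22.

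The 57 genes together took 0.757, 0.737 and 0.655% of the reads of the VEH libraries of F4/80hi Mϕ and 0.686, 0.579 and 0.591% with CIII. The share in F4/80lo Mϕ was 0.708, 0.852 and 0.652% with VEH and 0.733, 0.638 and 0.668% with CIII. The shares overlapped between treatments in both subpopulations. As sums of normalized counts they did not overlap, with 6662 to 7288 for VEH and 5141 to 6198 for CIII in F4/80hi Mϕ, and 6888 to 7744 for VEH and 6214 to 6766 for CIII in F4/80lo Mϕ. Whether the treatments overlapped therefore depended on the scaling. In F4/80hi Mϕ both measures were lower with CIII in each replicate number, while in F4/80lo Mϕ the share of reads was lower only in number 2. Of the 13 Mϕ markers, all tested in F4/80hi Mϕ, 3 were higher with CIII at an unadjusted limma p under 0.05 (1.29% of all genes) and 0 lower, and with the replicate block 5 were higher (5.07%). The MHC class II gene *H2-Ab1* held 374, 157 and 542 normalized counts with VEH and 1338, 385 and 3800 with CIII there, at 1.98 ± 0.78 (SE), and *H2-Aa* stood at 1.65 ± 0.70 (SE), both higher in each replicate number. *Cd74* stood at 1.49 ± 0.86 (SE), *Ccr2* at 1.30 ± 1.35 (SE) and *Mertk* at 0.77 ± 0.31 (SE). Of the 13 markers, 7 were higher and 6 lower there, with a median of 0.21, among the lower ones *Timd4* at -0.63 ± 0.55, *Lyz2* at -0.49 ± 0.58, *Cd68* at -0.28 ± 0.48 and *Icam2* at -0.23 ± 0.89 (SE). In F4/80lo Mϕ, sorted as MHCII+ cells, 12 of the 13 markers were tested, 8 higher and 4 lower, with a median of 0.26. *H2-Ab1*, *H2-Aa*, *Cd74* and *Csf1r* were higher there without overlap (3.82% of all genes), at 1.29 ± 0.65, 1.35 ± 0.69, 0.74 ± 0.48 and 0.77 ± 0.38 (SE). The lower ones were *Icam2* at -0.16 ± 0.51, *Itgam* at -0.15 ± 0.43, *Timd4* at -0.11 ± 0.36 and *Cd68* at -0.03 ± 0.42 (SE). At an unadjusted limma p under 0.05 there were 0, and with the replicate block 3 higher (3.03%). Markers of other cells also varied between these libraries. Summed neutrophil markers were 47.9 to 138 normalized counts with VEH and 33.7 to 41.1 with CIII in F4/80hi Mϕ, where *Ly6g*, *Ltf*, *Camp* and *Ngp* were at 0, and only 2 of the 10 markers were tested, *S100a8*, which was lower with CIII without overlap, and *Csf3r* at 0.25 ± 0.60 (SE) with overlap. Summed red cell markers, all 5 of them tested, were 5.32, 0 and 1608 with VEH and 4.33, 1.20 and 13.7 with CIII there, so that number 3 with VEH alone stood out. In F4/80lo Mϕ, where 4 of the 5 were tested and all 4 had a log2 fold change below 0, they were 53.5, 3.85 and 546 with VEH and 7.09, 18.3 and 89.5 with CIII, overlapping. Summed B cell markers in F4/80hi Mϕ were 0 to 43.0 with VEH and 10.9 to 57.8 with CIII, with 2 of 7 tested, *Ebf1* at 1.87 ± 0.97 (SE) without overlap and *Ighm* at 1.65 ± 1.26 (SE). Summed T and NK cell markers were 1.31 to 33.5 with VEH and 0 to 4.81 with CIII, with 1 of 9 tested, *Nkg7* at -2.29 ± 1.04 (SE) without overlap, and *Lck* and *Ncr1* at 0. Dendritic cell markers summed in F4/80lo Mϕ to 7.33 to 239 with VEH and 39.8 to 171 with CIII, and all 5 of 8 that were tested had a log2 fold change above 0, *Btla* at 2.08 ± 0.74 (SE) without overlap. None of these markers passed after adjustment. Their part in the values below was not tested.

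All 6 elongation factor genes had a log2 fold change below 0 in F4/80hi Mϕ, with a median of -0.66. Of the 6, 5 were lower with CIII in every replicate number, and the exception was *Eef1e1*, which was higher in number 3. *Eef1b2* (ENSMUSG00000025967, chr1:63176825-63180486, forward strand), the exchange factor that recharges eEF1A with GTP, held 489, 388 and 334 normalized counts in the VEH libraries 1, 2 and 3 and 222, 177 and 185 in the CIII libraries. Every CIII library lay below every VEH library, and the means were 404 ± 78.7 (SD, n = 3) with VEH and 195 ± 24.4 (SD, n = 3) with CIII. The log2 fold change was -1.04 ± 0.32 (SE, 95% confidence interval -1.75 to -0.33), with a limma adjusted p = 0.992, exact permutation p = 0.1, unadjusted limma p = 0.0092. Leaving out any single library kept it in the range -1.17 to -0.89.

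*Eef1a1* (ENSMUSG00000037742, chr9:78478449-78489151, reverse strand), the GTPase that delivers aminoacyl-tRNA, held 581, 327 and 472 normalized counts with VEH and 332, 218 and 204 with CIII in F4/80hi Mϕ. The CIII library numbered 1 lay just above the lowest VEH library, so the treatments overlapped, although CIII was lower than VEH in each replicate number, by log2 differences of -0.81, -0.58 and -1.20. The log2 fold change was -0.86 ± 0.36 (SE), with a limma adjusted p = 0.992, exact permutation p = 0.2, unadjusted limma p = 0.041. *Eef1a1* has many near-identical processed copies in the genome, and how reads matching several places were counted is not given in the sources used here.

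*Eef1g*, the anchoring subunit of the exchange complex, held 133, 189 and 118 normalized counts with VEH and 112, 91.3 and 87 with CIII, again with no overlap, at a log2 fold change of -0.58 ± 0.33 (SE, adjusted p = 0.992, exact permutation p = 0.1, unadjusted limma p = 0.11). *Eef1d*, the other exchange subunit, held 130.3, 169.8 and 110.1 with VEH and 93.9, 137 and 68.9 with CIII, which overlapped, at a log2 fold change of -0.48 ± 0.37 (SE). Summed over *Eef1a1*, *Eef1b2*, *Eef1d* and *Eef1g*, the eEF1 mRNAs came to 1334, 1074 and 1035 normalized counts with VEH and 760, 623 and 545 with CIII. The 3 CIII sums lay below the 3 VEH sums, and each CIII sum was below the VEH sum of its own replicate number. As a share of reads the eEF1 mRNAs came to 0.138, 0.119 and 0.0939% with VEH and 0.0841, 0.0701 and 0.0571% with CIII, also without overlap. *Eef2*, the translocation GTPase, held 900.1, 815 and 634 with VEH and 737, 693 and 553 with CIII, with overlapping treatments and a log2 fold change of -0.24 ± 0.34 (SE, 95% confidence interval -1.01 to 0.53). *Eef1e1*, which despite its name belongs to the multi-tRNA synthetase complex, rested on 13.3, 30.0 and 7.34 with VEH and 13, 4.81 and 8.75 with CIII, and overlapped.

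Of the same 6 genes, 4 were lower with CIII in F4/80lo Mϕ. *Eef1a1* held 353, 258 and 499 normalized counts with VEH and 246, 196 and 293 with CIII, at a log2 fold change of -0.56 ± 0.36 (SE, adjusted p = 0.9996, exact permutation p = 0.2, unadjusted limma p = 0.15, 0.045 with the replicate number as a block). *Eef1b2* held 413, 303 and 198 with VEH and 269.6, 224 and 192 with CIII, at -0.36 ± 0.37 (SE). Both overlapped between treatments and both were lower with CIII in each replicate number. The summed eEF1 mRNAs were 1004, 1005 and 862 with VEH and 831, 669 and 673 with CIII, with every CIII sum below every VEH sum. As a share of reads they overlapped, at 0.103, 0.111 and 0.0763% with VEH and 0.0901, 0.0687 and 0.0706% with CIII, lower with CIII in each replicate number. *Eef1d* had a log2 fold change of -0.25 ± 0.47 (SE) and *Eef1g* one of 0.04 ± 0.41 (SE), and each was lower with CIII in number 2 and higher in number 3. *Eef2* held 815, 1117 and 568 with VEH and 943, 1135 and 704 with CIII, slightly higher with CIII in each number, at 0.18 ± 0.39 (SE, 95% confidence interval -0.67 to 1.04). *Eef1e1* held 16.3, 23.1 and 13.7 with VEH and 10.6, 2.28 and 11.1 with CIII, without overlap, at -1.24 ± 0.70 (SE, adjusted p = 0.9996, exact permutation p = 0.1, unadjusted limma p = 0.1), and its CIII library 2 held 1 read.

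**Figure D2:**
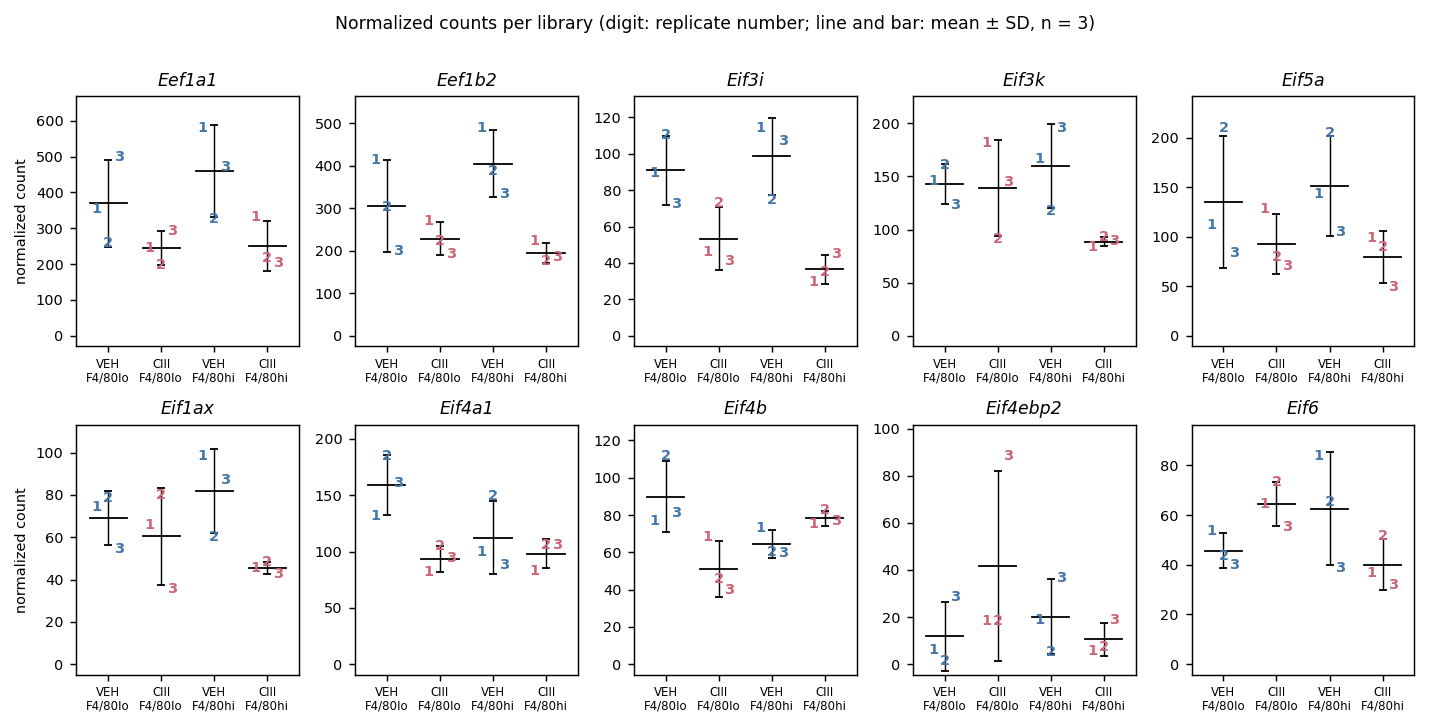
Normalized counts (y axis, from near 0) of 10 translation factor mRNAs in each of the 12 libraries, by treatment and subpopulation (x axis). Each digit is a library with its replicate number, blue for VEH and red for CIII, and the line and bar are the mean ± SD of 3 libraries. The 3 CIII libraries of F4/80hi Mϕ for *Eef1b2*, *Eif3i*, *Eif3k*, *Eif5a* and *Eif1ax* sit below all VEH libraries, while *Eif4a1* and *Eif4b* show this in F4/80lo Mϕ.

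Of the enzymes that modify the elongation factors, *Eef2k*, the kinase that phosphorylates and slows eEF2, was weakly expressed. It held 10.5, 3.85 and 16 normalized counts with VEH and 4.26, 0 and 3.32 with CIII in F4/80lo Mϕ, the last from 6, 0 and 3 reads. CIII was lower in each replicate number, the treatments overlapped, and the log2 fold change was -1.79 ± 0.97 (SE, adjusted p = 0.9996, exact permutation p = 0.2, unadjusted limma p = 0.09, 0.044 with the replicate block). The F4/80hi libraries held 13.3, 24.8 and 5.24 with VEH and 15.2, 13.2 and 13.1 with CIII, at 0.17 ± 0.61 (SE). *Eef2kmt*, an eEF2 lysine methyltransferase, held 47.9, 54.9 and 31.4 with VEH and 28.9, 27.6 and 29 with CIII in F4/80hi Mϕ, without overlap, at -0.60 ± 0.38 (SE, adjusted p = 0.992, exact permutation p = 0.1, unadjusted limma p = 0.15). The eEF1A methyltransferases *Eef1akmt1* and *Eef1akmt2* stayed under 21 normalized counts in every library and overlapped in both subpopulations, *Eef1akmt2* with the second-largest positive value in F4/80lo Mϕ (0.55 ± 1.06, SE) on at most 6.63 normalized counts.

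Among the 14 eIF3 subunits, which form the platform on the small ribosomal subunit, 12 were lower with CIII in F4/80hi Mϕ, with a median log2 fold change of -0.47, and 4 did not overlap between treatments, all of them lower (5.76% of all genes). *Eif3i* (ENSMUSG00000028798, chr4:129591960-129600648, reverse strand), a WD-repeat subunit, held 114, 74.5 and 107 normalized counts with VEH and 29.6, 34.9 and 44.9 with CIII. The highest CIII library lay well below the lowest VEH library, with means of 98.6 ± 21.2 (SD, n = 3) with VEH and 36.4 ± 7.75 (SD, n = 3) with CIII. Its log2 fold change was -1.41 ± 0.36 (SE, 95% confidence interval -2.22 to -0.60), with a limma adjusted p = 0.992, exact permutation p = 0.1, unadjusted limma p = 0.0033. It stayed in the range -1.60 to -1.27 when any single library was left out and was -1.49 without the libraries numbered 3. *Eif3i* in F4/80lo Mϕ held 89.6, 110.4 and 72.6 with VEH and 46.1, 73.1 and 40.9 with CIII, lower in each replicate number but with 1 CIII library inside the VEH range, at -0.78 ± 0.39 (SE, adjusted p = 0.9996, exact permutation p = 0.2, unadjusted limma p = 0.067, 0.025 with the replicate block).

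*Eif3k* (chr7:28971372-28981864, reverse strand), a small helical subunit, held 166, 118 and 196 normalized counts with VEH and 83.7, 92.5 and 89.2 with CIII in F4/80hi Mϕ. The CIII libraries were close to each other and below all VEH libraries, at -0.82 ± 0.33 (SE, adjusted p = 0.992, exact permutation p = 0.1, unadjusted limma p = 0.034). *Eif3g*, the RNA-binding subunit, held 58.5, 47 and 24.1 with VEH and 23.8, 20.4 and 20.2 with CIII, at -0.89 ± 0.44 (SE, adjusted p = 0.992, exact permutation p = 0.1, unadjusted limma p = 0.075, 0.041 with the replicate block). Its VEH library 3 was only just above the CIII libraries. *Eif3m*, a PCI-domain subunit, held 38.6, 26.1 and 13.6 with VEH and 17.3, 7.21 and 5.47 with CIII, at -1.34 ± 0.60 (SE, adjusted p = 0.992, exact permutation p = 0.2, unadjusted limma p = 0.053, 0.016 with the block). CIII was lower in each replicate number, but CIII library 1 lay above VEH library 3, so the treatments overlapped.

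*Eif3j1*, one of a pair of near-identical genes for the loosely attached subunit, held 58.5, 43.1 and 67.1 with VEH and 23.8, 42.1 and 33.9 with CIII in F4/80hi Mϕ, without overlap, at -0.75 ± 0.39 (SE, adjusted p = 0.992, exact permutation p = 0.1, unadjusted limma p = 0.084). Its partner copy *Eif3j2* had -0.26 ± 0.55 (SE) and overlapped, and reads of such copies may be split between them. The subunits *Eif3a*, *Eif3b* and *Eif3c* overlapped between treatments, with log2 fold changes of -0.16 ± 0.45, 0.02 ± 0.36 and 0.27 ± 0.46 (SE) in F4/80hi Mϕ. The remaining 5 subunits overlapped as well, with values from -0.51 for *Eif3e* and *Eif3h* to -0.14 for *Eif3f*. Of the 14 subunits, 10 were lower with CIII in F4/80lo Mϕ, with a median of -0.19, and all 14 overlapped between treatments.

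The list headed start site selection and subunit joining held 9 genes, with *Eif1ad*, *Eif2a* and *Eif2d* placed in it as well. All 9 were lower with CIII in F4/80hi Mϕ, against 46.5% of all genes, with a median log2 fold change of -0.27. *Eif1ax* (chrX:159372178-159389928, forward strand), the X-linked gene of the scanning factor eIF1A, held 98.4, 60.1 and 87 normalized counts with VEH and 45.5, 48.1 and 42.7 with CIII, without overlap, at -0.81 ± 0.35 (SE, 95% confidence interval -1.59 to -0.03, adjusted p = 0.992, exact permutation p = 0.1, unadjusted limma p = 0.044). The closely similar *Eif1a* overlapped, at -0.16 ± 0.35 (SE). *Eif1*, which guards start codon choice, held 174, 127 and 116 with VEH and 129, 107 and 101 with CIII, overlapping, at -0.30 ± 0.32 (SE). *Eif5* and *Eif5b*, which trigger GTP hydrolysis by eIF2 and the joining of the large subunit, had values of -0.07 ± 0.38 and -0.16 ± 0.35 (SE). Of the 9 genes, 7 were lower in F4/80lo Mϕ, against 54.1% of all genes, with a median of -0.25, and all overlapped between treatments.

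Of the 8 subunits of eIF2 and of eIF2B, its exchange factor, 6 were lower with CIII in each subpopulation, with medians of -0.51 in F4/80hi and -0.18 in F4/80lo Mϕ. *Eif2s1*, the subunit that stress kinases phosphorylate, held 34.6, 44.4 and 43 with VEH and 34.7, 16.8 and 24.6 with CIII in F4/80hi Mϕ, and 34.9, 34.7 and 28.3 with VEH and 29.8, 13.7 and 16.6 with CIII in F4/80lo Mϕ. CIII library 1 reached into the VEH range in both, and the log2 fold changes were -0.71 ± 0.41 and -0.75 ± 0.48 (SE). *Eif2s2* had -0.46 ± 0.48 (SE) in F4/80hi and -0.17 ± 0.33 (SE) in F4/80lo Mϕ, overlapping in both. *Eif2s3x* did not overlap in F4/80lo Mϕ, with 11.6, 19.3 and 14 with VEH and 10.6, 11.4 and 9.95 with CIII, but at -0.43 ± 0.57 (SE) its difference was smaller than its standard error. *Eif2b4*, the delta subunit of eIF2B, had the largest positive value in F4/80hi Mϕ at 0.89 ± 0.64 (SE), resting on 16, 5.23 and 35.6 with VEH and 23.1, 36.1 and 26.8 with CIII, and without VEH library 2 it was 0.23.

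Of the 11 genes of eIF4F and its helpers, 7 were lower with CIII in each subpopulation, with medians of -0.16 in F4/80hi and -0.04 in F4/80lo Mϕ. *Eif4a1* (ENSMUSG00000059796, chr11:69666936-69672423, reverse strand), the helicase that opens mRNA leaders, held 131, 185 and 161 normalized counts with VEH and 81.6, 105 and 94 with CIII in F4/80lo Mϕ. Every CIII library lay below every VEH library, and the within-number log2 differences were alike at -0.68, -0.81 and -0.77. The log2 fold change was -0.75 ± 0.33 (SE, 95% confidence interval -1.48 to -0.02), with a limma adjusted p = 0.9996, exact permutation p = 0.1, unadjusted limma p = 0.044 (0.016 with the replicate block). In F4/80hi Mϕ it held 99.7, 149 and 88 with VEH and 83, 106 and 106 with CIII, overlapping, at -0.16 ± 0.34 (SE).

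*Eif4b* (chr15:102073773-102097173, forward strand), the RNA-binding protein that stimulates eIF4A, held 76.8, 112 and 80.9 with VEH and 68.1, 45.7 and 39.8 with CIII in F4/80lo Mϕ, without overlap, at -0.82 ± 0.38 (SE, adjusted p = 0.9996, exact permutation p = 0.1, unadjusted limma p = 0.055, 0.032 with the block). The order was turned in F4/80hi Mϕ, with 73.1, 60.1 and 59.7 with VEH and 75.1, 82.9 and 76.6 with CIII, again without overlap, at 0.28 ± 0.32 (SE, adjusted p = 0.992, exact permutation p = 0.1, unadjusted limma p = 0.39). *Eif4a2*, the second helicase gene, held 75.6, 65.5 and 56.3 with VEH and 35.5, 32 and 55.3 with CIII in F4/80lo Mϕ, where VEH library 3 lay barely above CIII library 3, at -0.70 ± 0.39 (SE, adjusted p = 0.9996, exact permutation p = 0.1, unadjusted limma p = 0.1). *Eif4a2* overlapped in F4/80hi Mϕ at 0.46 ± 0.47 (SE).

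*Eif4g3*, a scaffold gene, held 344, 295 and 329.8 with VEH and 272, 233 and 252 with CIII in F4/80lo Mϕ, without overlap, at -0.35 ± 0.31 (SE, adjusted p = 0.9996, exact permutation p = 0.1, unadjusted limma p = 0.28). *Eif4g1*, the main scaffold, was widely spread, with 189, 67.9 and 203 with VEH and 258, 86.5 and 329.9 with CIII in F4/80hi Mϕ at 0.50 ± 0.59 (SE), and without VEH library 2 its value there was -0.01. *Eif4g1* in F4/80lo Mϕ stood at -0.01 ± 0.40 (SE). *Eif4e*, the cap-binding protein, held 46.5, 89.9 and 50.0 with VEH and 53.2, 57.1 and 43.1 with CIII in F4/80lo Mϕ and 61.2, 50.9 and 67.1 and 62.8, 30.0 and 41.6 in F4/80hi Mϕ. It overlapped in both, at -0.22 ± 0.40 and -0.46 ± 0.39 (SE). *Eif4e2*, a cap-binding relative, was among the 3 largest positive values in F4/80lo Mϕ at 0.51 ± 0.41 (SE), with overlapping treatments.

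Of the proteins that hold eIF4E back, *Eif4ebp2* (ENSMUSG00000020091, chr10:61428491-61452661, reverse strand) had the largest positive value of all 57 genes in F4/80lo Mϕ. It held 5.82, 1.28 and 28.6 normalized counts with VEH and 18.4, 18.3 and 88.4 with CIII. CIII was higher in each replicate number, but VEH library 3 lay above CIII libraries 1 and 2, so the treatments overlapped, and VEH library 2 held 1 read. Its log2 fold change was 2.06 ± 0.93 (SE, 95% confidence interval 0.02 to 4.10), with a limma adjusted p = 0.9996, exact permutation p = 0.3, unadjusted limma p = 0.048 (0.0039 with the replicate block). It ranged from 1.18 to 3.03 when single libraries were left out. In F4/80hi Mϕ it held 18.6, 5.23 and 36.7 with VEH and 5.78, 7.21 and 18.6 with CIII, overlapping, at -0.69 ± 0.76 (SE). *Eif4ebp1*, the 4E-BP best known as an mTORC1 substrate, overlapped in both, at 0.14 ± 0.41 in F4/80lo and -0.27 ± 0.43 (SE) in F4/80hi Mϕ.

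*Eif5a* (ENSMUSG00000078812, chr11:69916714-69921958, reverse strand), the hypusine-bearing factor that helps ribosomes past difficult codons, held 144, 205 and 105 normalized counts with VEH and 98.9, 90.1 and 49.2 with CIII in F4/80hi Mϕ. The treatments did not overlap, although CIII library 1 came close to VEH library 3. The log2 fold change was -0.93 ± 0.40 (SE, 95% confidence interval -1.84 to -0.02), with a limma adjusted p = 0.992, exact permutation p = 0.1, unadjusted limma p = 0.046 (0.0055 with the replicate block). In F4/80lo Mϕ it held 112, 211 and 83.6 with VEH and 128, 80.0 and 70.8 with CIII, overlapping, at -0.48 ± 0.42 (SE). *Eif6*, which keeps the large subunit from joining too early, held 53.5, 43.6 and 40.0 with VEH and 64.6, 73.1 and 55.3 with CIII in F4/80lo Mϕ. Every CIII library lay above every VEH library there, at 0.48 ± 0.37 (SE, adjusted p = 0.9996, exact permutation p = 0.1, unadjusted limma p = 0.22). Its F4/80hi libraries held 83.8, 65.3 and 38.8 with VEH and 36.8, 51.7 and 31.7 with CIII, lower in each number, at -0.59 ± 0.41 (SE).

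**Figure D3:**
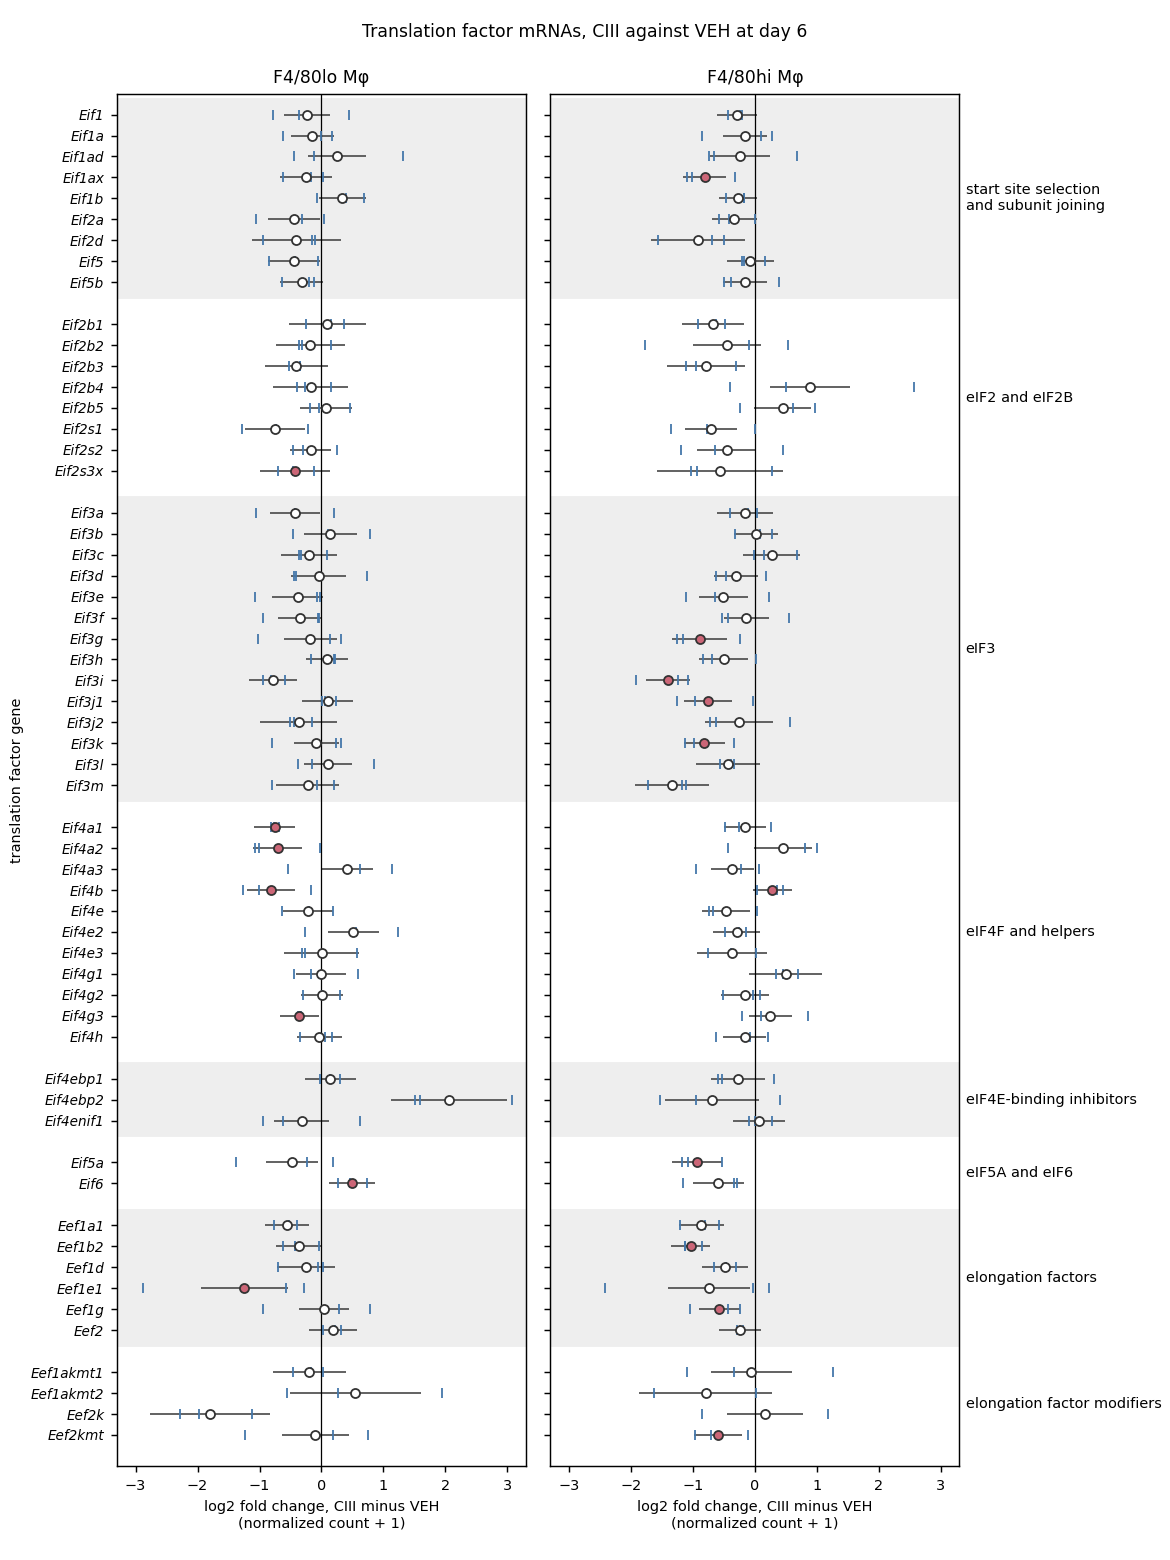
Log2 fold change of CIII against VEH (x axis, normalized count + 1) of the 57 translation factor mRNAs, grouped by role (y axis), in F4/80lo (left) and F4/80hi Mϕ (right). Circles with bars are the log2 fold change ± SE over 3 libraries per treatment, blue ticks are the differences within each replicate number, and red circles are genes whose treatments do not overlap, 10 of them in F4/80hi Mϕ and 7 in F4/80lo Mϕ.

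Counted over all roles, the treatments did not overlap for 10 of the 57 genes in F4/80hi Mϕ (10.5% of all genes tested), 9 of them lower (5.76% of all genes) and 1 higher with CIII (4.73%). In F4/80lo Mϕ they did not overlap for 7 genes (8.73% of all genes), 6 of them lower (4.92%) and 1 higher (3.82%). In F4/80hi Mϕ 6 genes had an unadjusted limma p under 0.05, all of them lower (2.65% of all genes) and 0 higher (1.29%), against 3.93% of all genes in either direction. They were *Eif3i*, *Eef1b2*, *Eif3k*, *Eef1a1*, *Eif1ax* and *Eif5a*, and the count was 2 without VEH library 1, CIII library 2 or CIII library 3, where 2.22, 2.57 and 2.63% of all genes had such a p. In F4/80lo Mϕ 2 genes did, against 2.7% of all genes, *Eif4a1* lower (1.61%) and *Eif4ebp2* higher (1.08%). The 2 became 0 without VEH library 1, VEH library 2 or CIII library 3, and 1 without CIII library 1. With the replicate number as a block 6 genes did in F4/80lo Mϕ, against 6.89% of all genes, 5 of them lower (3.85%) and 1 higher (3.03%), and 8 in F4/80hi Mϕ, against 11.3%, all of them lower (6.24%) and 0 higher (5.07%). *Eif3i* and *Eef1b2* in F4/80hi Mϕ kept an unadjusted p under 0.05 in all 19 alternatives, and the other 6 genes lost it in 7 to 10 of them. After adjustment 0 of 57 genes passed in either subpopulation (0% of all genes), and 0 did in edgeR and in DESeq2, where 4 and 5 genes had an unadjusted p under 0.05 in F4/80hi Mϕ (3.89 and 4.04% of all genes) and 1 each in F4/80lo Mϕ (2.67 and 2.77%). An exact permutation test of 3 against 3 libraries gives a p of 0.1 at the smallest.

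Across the subpopulations, 31 of the 57 genes were lower with CIII in both, against 29.4% of the 10097 genes tested in both, and 2 were higher in both, against 28.9%. Another 16 were higher in F4/80lo Mϕ but lower in F4/80hi Mϕ (16.7% of all genes), and 8 the other way round (25%). *Eef1a1*, *Eef1b2*, *Eif2b3*, *Eif2d* and *Eif3i* were lower in every replicate number of both subpopulations, 5 genes against 4.44% of all genes. *Eef2*, *Eif3j1*, *Eif4b* and *Eif6* went one way in every replicate number of F4/80lo and the other way in every number of F4/80hi Mϕ, 4 genes against 2.65%.

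**Figure D4:**
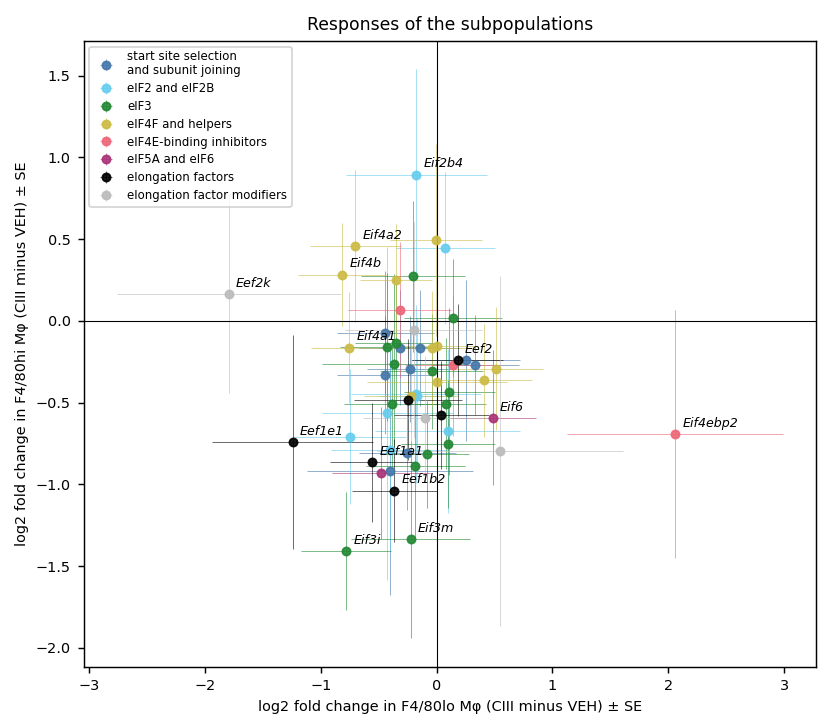
Log2 fold change of CIII against VEH in F4/80lo (x axis) and in F4/80hi Mϕ (y axis) for the 57 genes, coloured by role, with bars of 1 SE. The lower left field holds 31 genes, among them *Eif3i*, *Eef1b2* and *Eef1a1*, and *Eif4ebp2* and *Eef2k* lie farthest to the sides, with wide bars.

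The difference between the 2 responses was tested directly over the 12 libraries, and 0 of 57 genes passed after adjustment (0% of all genes). *Eif4b* alone had an unadjusted limma p under 0.05 for this difference, against 1.71% of all genes, at -1.10 ± 0.44 (SE, 95% confidence interval -2.05 to -0.14, limma adjusted p = 0.999). With the replicate block 5 genes did, against 5.34% of all genes, namely *Eif4b*, *Eif6*, *Eif4ebp2*, *Eif4a2* and *Eef2k*. For *Eif4ebp2* the difference was 2.75 ± 1.34 (SE), with a limma adjusted p = 0.999, and adjusted p = 0.898 with the block. *Eif3i* and *Eef1b2*, with the smallest p in F4/80hi Mϕ, were not shown to differ between the subpopulations, with differences of 0.63 ± 0.49 and 0.67 ± 0.45 (SE).

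The 10 genes listed as TOP mRNAs among the 57 were the eEF1 genes, *Eef2*, *Eif3a*, *Eif3e*, *Eif3f*, *Eif3h* and *Eif4b*. In F4/80hi Mϕ 9 of the 10 were lower with CIII, against 46.5% of all genes, with a median of -0.49. For F4/80lo Mϕ it was 7 of the 10, against 54.1%, with a median of -0.36. Of all 57 genes, these 10 included, 47 were lower in F4/80hi and 39 in F4/80lo Mϕ. The table of starts held 6 of these 10 genes, and 2 of the 6 starts had the pyrimidine run, against 28 of 63 starts of ribosomal protein genes. Another 43 genes, from outside the 63, were listed as partners of translation. Among them were the Eif2ak kinases and the termination and recycling factors. Of the 43, 40 were tested in F4/80hi Mϕ, and 2 were lower (2.65% of all genes) and 1 higher (1.29%) at an unadjusted limma p under 0.05. With the replicate block 4 were lower (6.24%) and 2 higher (5.07%). The 3 genes without the block are given as values. *Rack1*, a scaffold protein of the small ribosomal subunit, held 1174, 839 and 940.2 normalized counts with VEH and 534, 544 and 447 with CIII there, without overlap, at -0.94 ± 0.33 (SE, adjusted p = 0.992, exact permutation p = 0.1, unadjusted limma p = 0.02). *Denr*, which helps recycle ribosomes, held 172, 141 and 83.8 with VEH and 85.2, 78.1 and 30.6 with CIII, overlapping, at -1.09 ± 0.47 (SE, adjusted p = 0.992, exact permutation p = 0.2, unadjusted limma p = 0.046). *Tsc1*, a brake on mTORC1, was higher with CIII, at 19.9, 30.0 and 45.1 with VEH and 62.1, 73.3 and 62.4 with CIII, without overlap, at 1.10 ± 0.40 (SE, adjusted p = 0.992, exact permutation p = 0.1, unadjusted limma p = 0.022). In F4/80lo Mϕ *Rack1*, *Denr* and *Tsc1* overlapped between treatments, at -0.02 ± 0.40, -0.40 ± 0.40 and -0.34 ± 0.44 (SE).

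For F4/80lo Mϕ, 39 partner genes were tested, and 0 were lower (1.61% of all genes) and 1 higher (1.08%) at an unadjusted p under 0.05. With the replicate block 1 was lower (3.85%) and 2 higher (3.03%). The 1 without the block was *Mknk2*, a kinase that phosphorylates eIF4E, with 89.6, 68 and 109 normalized counts with VEH and 137, 128 and 206 with CIII, without overlap, at 0.81 ± 0.36 (SE, adjusted p = 0.9996, exact permutation p = 0.1, unadjusted limma p = 0.046). Its value in F4/80hi Mϕ was 0.53 ± 0.36 (SE). None of the partner genes passed after adjustment in either subpopulation. Their median log2 fold change was -0.10 in F4/80hi and 0.03 in F4/80lo Mϕ, where the 57 translation factor genes stood at -0.36 and -0.20. By list, the F4/80hi medians were -0.50 for nascent chain and hypusine partners and -0.38 for termination and recycling factors. Cap and poly(A) partners stood at -0.08, mTORC1 and Mnk partners at 0.035 and eIF2 stress partners at 0.12. Summed partner counts did not overlap in F4/80hi Mϕ (3915 to 4821 with VEH, 3146 to 3640 with CIII), and they overlapped in F4/80lo Mϕ.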

How the data were processed

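RNA of sorted peritoneal Mϕ was sequenced by the authors as 3′ mRNA libraries with unique molecular identifiers (UMIs), 3 for each treatment and subpopulation. Per the study's methods and the submitters' processing notes, reads were trimmed with Bbduk, mapped to GRCm38 with STAR, collapsed by UMI, counted per gene with HTSeq-count and divided by DESeq2 size factors, separately for each subpopulation. The deposited values are therefore a normalized signal: divided by what 1 read is worth in its library, 100% came out whole within 0.001, and these whole read counts were recovered. Depth was 426624 to 3389448 reads per library, and such limits cover counting error only.

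Symbols and coordinates came from GENCODE (GRCm38) for 47224 of the 47643 Ensembl identifiers. The genes and lists were chosen with earlier results of these data known. Each subpopulation was tested with limma 3.58.1 in R 4.3.3 on log2(normalized count + 1), for genes with a mean of at least 3, two-sided, with Benjamini-Hochberg adjustment over all genes tested at a threshold of 0.05. Fold changes on this scale understate those of weak genes. The difference of responses used all 12 libraries. edgeR 4.0.16 and DESeq2 1.42.0 on the recovered reads, other scalings, filters and pseudocounts, leaving out libraries and the replicate number as a block were alternatives. Libraries of the same number deviated together, with correlations across genes for numbers 1, 2 and 3 of 0.121, 0.238 and 0.504 (F4/80lo Mϕ) and of 0.216, 0.412 and 0.639 (F4/80hi Mϕ). VEH library 1 correlated more with CIII library 2 (0.171 and 0.285) than with CIII library 1, and number 3 correlated below 0 with the other numbers in both. The pairing comes from these deviations, which mainly set number 3 apart, and is not stated. Genes were named if their unadjusted p was under 0.05, if they were among the 3 largest changes in either direction, or if they belonged to a set list of core factors. Partner genes were named at an unadjusted p under 0.05. Other genes were named after their values were seen, most of them because their treatments did not overlap. The fits were checked on simulated counts. Plots were made in Python 3.11.15 with matplotlib 3.10.9.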

Additional observations from a re-analysis of the deposited data

Results flagged for a closer look

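For 4 translation factor genes all 3 within-number differences between CIII and VEH went one way in F4/80lo Mϕ and the other way in F4/80hi Mϕ, as they did for 2.65% of the 10097 genes with a test in each subpopulation. The response in F4/80lo minus the response in F4/80hi Mϕ, on the log2 scale, was tested with limma over the 12 libraries. It was -1.10 ± 0.44 (SE) for *Eif4b*, with a 95% confidence interval of -2.05 to -0.14. For *Eif6* it was 1.08 ± 0.51 (SE), with an interval of -0.02 to 2.18. For *Eif3j1* it was 0.85 ± 0.52 (SE), with an interval of -0.27 to 1.98. For *Eef2* it was 0.42 ± 0.48 (SE), with an interval of -0.61 to 1.45. The limma adjusted p = 0.999 for each of the 4, so none passed. Without the replicate block the interval of *Eif4b* leaves out 0 and those of the other 3 hold it, and with the block *Eif6* also had an unadjusted limma p under 0.05, with an adjusted p = 0.898. The 4 genes were picked by the opposite directions that the difference measures.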

How the results depend on the processing

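No alternative gave a translation factor gene an adjusted p under 0.05. Of 43 named gene and subpopulation pairs, 33 kept their sign in every alternative run, which were 19, or 18 for *Eef2k* and *Eef1akmt2* in F4/80lo Mϕ, and the 10 that did not had log2 fold changes of at most 0.57 in size. In F4/80lo Mϕ the 2 genes with an unadjusted p under 0.05 became 6 with the replicate block (6.89% of all genes) and 4 with array weights (11.5%), 1 each with a pseudocount of 5, a mean of at least 10, equal totals, equal totals without *Gm42418* (chosen after seeing the data), TMM factors, edgeR and DESeq2 (2.49 to 2.79%), and 0 to 2 when single libraries were left out (1.44 to 6.24%). The 7 without overlap became 4 with equal totals and with quantile normalization (8.60 and 8.11% of all genes), 9 to 15 without single libraries (15.2 to 23.5%) and 21 with numbers 1 and 2 only, where fewer libraries separate more easily. In F4/80hi Mϕ the 6 genes became 2 with equal totals (4.11%), 3 without *Gm42418* (4.18%), 2 to 7 without single libraries (2.22 to 9.88%) and 8 with the block (11.3%). The 10 without overlap became 6 with equal totals (10.9%), also without *Gm42418* (10.7%), 13 to 21 without single libraries (17.0 to 29.8%) and 24 with numbers 1 and 2 only. With numbers 1 and 2 only, the share of all genes without overlap was 34.3% (F4/80lo Mϕ) and 39.1% (F4/80hi Mϕ). The median of the 57 genes in F4/80hi Mϕ was -0.26 with equal totals and -0.46 to -0.28 without single libraries. For the difference of responses, the 1 gene became 5 with the block (5.34%), 2 with equal totals (1.71%), 2 with edgeR (1.64%) and 4 with numbers 1 and 2 only (3.22%). Where not said, the cause was not tested. With the replicate block 0 translation factor or partner genes passed after adjustment, as without it. Genes with 0 or 1 read in a library of F4/80lo Mϕ, such as *Eef2k* and *Eef1akmt2*, rest on few reads there, and the part of depth in this was not tested.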
